A study of Mus musculus with 6 samples.

Results

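The chaperone genes of the cytosol and mitochondria were examined in Apc-knockout mouse intestinal organoids, which are self-organising cultures of intestinal epithelium. Members were chosen by gene symbol: the Hspa, Hspb, Hsp90a, Dnaja, Dnajb, Dnajc, Cct and Bag genes with Tcp1, Hspd1, Hspe1 and Hsph1, leaving out Hspa5, Dnajb9, Dnajb11 and Dnajc3, which act in the endoplasmic reticulum. The rule found 88 members among 52249 genes in the table, 5 of them annotated as pseudogenes. It left in some members known from the endoplasmic reticulum, such as Dnajc10, Dnajc1, Dnajb12 and Dnajb14, and Hspb11, which is known as a subunit of the intraflagellar transport machinery, so the set is a set of gene families more than of compartments.

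Apc, which restrains WNT signalling and is a tumour suppressor, was knocked out in the organoids of all 6 libraries. By their titles, 3 libraries carry the knockout alone (control below) and 3 carry it with IGF2BP3 overexpression (OE below, the name the labels use). IGF2BP3 is an RNA-binding protein that can stabilise its target mRNAs, and the title of the study ties it to differences in growth among adenoma cells. Strain, age, the promoter of the overexpression construct and the number of animals or clones were not given in the sources used here.

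Chaperones bind unfolded or partly folded proteins and keep them from aggregating. HSP70 proteins cycle through ATP with the help of J-domain proteins (DNAJ), which deliver clients, and nucleotide exchange factors such as HSP110 and BAG proteins, which release them. HSP90 finishes the folding of kinases and receptors, TRiC encloses actin and tubulin in a ring of paralogous subunits, and Hspd1 with its lid Hspe1 does the like in the mitochondrial matrix. Many of these genes are induced by the heat shock factor HSF1, which answers to unfolded protein in the cell.

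The libraries held 2180116 to 2519917 counts in total, and the limit that 3 counts set lay between 1.18 and 1.41 CPM (counts scaled to a common library size by the TMM method, as edgeR's CPM). Igf2bp3 itself had 1, 0 and 0 counts in control replicates 1 to 3 and likewise 1, 0 and 0 in OE replicates 1 to 3, so the counts gave no check of the label. The library names place each group in its own series, so series and group cannot be told apart in any result below. Nothing in the labels says that libraries of a group came from separate cultures, so the p-values measure the spread between these libraries, which may be technical. Epithelial markers summed to 3948 to 4172 CPM in control and 5325 to 6025 CPM in OE libraries. All 7 listed genes were tested, and 4 rose, namely Krt8, Krt18, Krt19 and Vil1 (57.1%, against 16.5% of all genes). Cdx2 was low, at 5.07 to 12.7 CPM in control and 11.8 to 14.6 CPM in OE libraries, and did not pass (edgeR adjusted p = 0.383). Cdh1 had a log2 fold change of -0.12 (edgeR adjusted p = 0.528) and Epcam of 0.07 (edgeR adjusted p = 0.586). Mesenchymal markers summed to at most 3.28 CPM in any library, with Col1a2, Col3a1, Dcn and Lum at 0 in all 6, and endothelial and nerve markers summed to at most 6.34 CPM. Blood and immune markers summed to 13.6 to 18.0 CPM in control and 14.8 to 20.3 CPM in OE libraries, with Cd3e, Cd79a, Lyz2, Hba-a1 and Hbb-bs at 0 in all 6.

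Single chaperone genes rose or fell, and the share of members that changed lay near that of all genes. Of the 88 members, 63 had enough counts to be tested, and 15 of these (23.8%) differed with an edgeR adjusted p below 0.05, against 29.2% of the 10687 genes tested. The 12 members that rose made up 19.0% of those tested, against 16.5% of all genes, and the 3 that fell made up 4.76%, against 12.7% of all genes. The median log2 fold change of the tested members was 0.02, beside 0.04 for all genes tested. For 29 members the ranges of CPM stayed apart between the groups (46.0%), against 45.7% of all genes. In bulk samples a change in the number of cells of a type and a change in RNA per cell cannot be told apart.

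**Figure D1:**
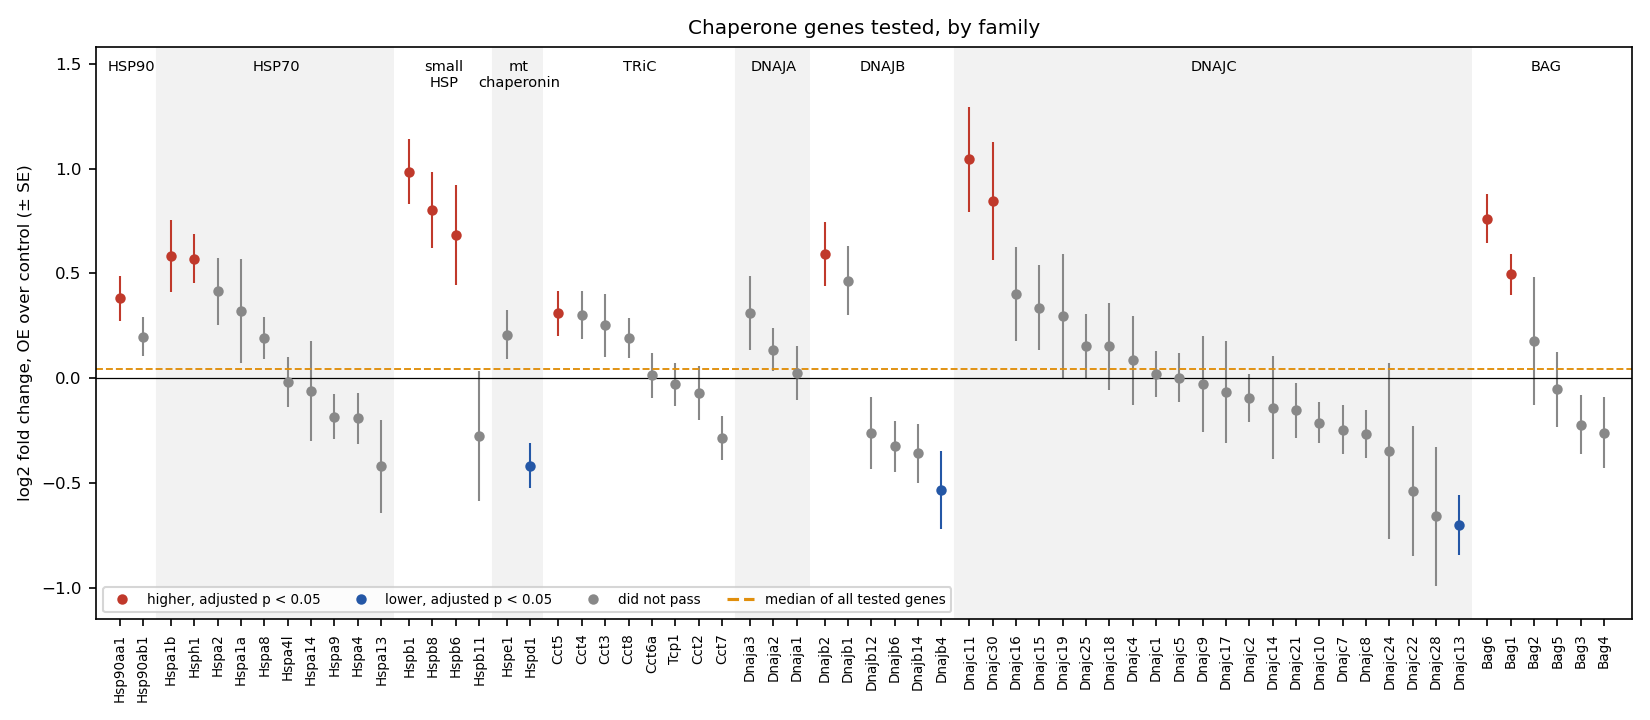
Log2 fold change (OE over control) of the 63 tested members, ordered within each family, with bars for 1 standard error; red and blue points passed at an edgeR adjusted p below 0.05, grey points did not, and the dashed line is the median of all tested genes. Hspb1, Hspb8 and Hspb6 stand high together, while the TRiC, HSP70, DNAJB, DNAJC and BAG points lie on both sides of 0.

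The count of members that fell depended on single libraries and on scaling. It went from 3 to 10 without OE replicate 1 and to 1 without control replicate 2. It was 6 with DESeq2 size factors and 6 without mitochondrial genes and the abundant transcript CT010467.1. Over all genes the calls that fell went from 1353 to 1731, 758, 1541 and 1622 in the same settings, in this order. The count of members that rose went from 12 to 15 with library totals and to 14 without OE replicate 3. It went to 6 without control replicate 2 or without control replicate 3, and to 8 without control replicate 1. It went to 8 with an offset for GC content and to 6 with DESeq2's own test. Over all genes the calls that rose went from 1765 to 2035, 1959, 1079, 1033, 1097, 1361 and 1059, in the same order. The share of calls that were higher was 80% in the members under TMM, 62.5% under DESeq2's size factors and 88.2% under library totals, beside 56.6%, 49.9% and 63.8% in all genes. With these scalings the median of all genes was 0.04, -0.00297 and 0.09 on the log2 scale.

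The 25 members that were not tested were low throughout. Of these, 12 had no count in any library, among them Hspb3, Hspb7, Hspb9, Dnajb8, Dnajc6 and Dnajc5b, and none of the other 13 exceeded 11 counts in a library. Dnaja4, a co-chaperone of HSP70, had 5, 5 and 8 counts in control and 6, 10 and 11 in OE libraries.

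All members together took 11705 ± 64.9 CPM in control and 12549 ± 633 CPM in OE libraries (SD, n = 3). Hsp90ab1, the constitutive cytosolic HSP90, gave the largest part of this. Because 3′ reads give about 1 tag for a transcript whatever its length, CPM was compared between genes here without a length correction. How well such levels compare between genes was not tested. Hsp90ab1 was counted at 4126, 4127 and 4096 CPM in control replicates 1 to 3 and at 5279, 4659 and 4229 CPM in OE replicates 1 to 3. The groups did not overlap, but the OE libraries were spread widely, and the log2 fold change of 0.20 (SE 0.10) did not pass (edgeR adjusted p = 0.136). Without OE replicate 3 it was 0.28 and passed (edgeR adjusted p = 0.0115, in a range from 0.0115 to 0.578 over all alternatives). Without Hsp90ab1 the members summed to 7589 ± 59.4 and 7827 ± 249 CPM (SD, n = 3), and these ranges overlapped. As a share of all counts they did not (0.737% to 0.745% in control and 0.775% to 0.817% in OE libraries). Shares of all counts also depend on abundant RNAs. Mitochondrial ribosomal RNAs took 9.11% of counts in control and 4.05% in OE libraries, and CT010467.1 took 4.46% and 1.61%. Their part in the shares was not tested.

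Hsp90aa1, the stress-inducible paralogue, rose. It was counted at 492, 445 and 445 CPM in control and 677, 558 and 564 CPM in OE libraries, a log2 fold change of 0.38 (SE 0.11, edgeR's adjusted p = 0.0189). OE replicate 1 was the highest, as for Hsp90ab1. With single libraries left out, the log2 fold change of Hsp90aa1 ran from 0.23 to 0.43. The call was lost when control replicate 1, 2 or 3 was left out (adjusted p from 0.0510 to 0.101) and in DESeq2's test (adjusted p = 0.0502, in a range from 0.00200 to 0.101 over all alternatives). Hsp90ab1 gave 8.39, 9.27 and 9.21 counts for each count of Hsp90aa1 in control and 7.80, 8.35 and 7.50 in OE libraries, so the ratio was lower in every OE library. The exact permutation p of the log2 ratio was 0.1 (two-sided), the smallest that 3 against 3 libraries can give.

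The HSP70 family summed to 1750 ± 25.1 CPM in control and 1742 ± 82.1 CPM in OE libraries (SD, n = 3). Of its 10 tested genes, 2 rose (20%, against 16.5% of all genes) and none fell by edgeR's test (against 12.7%). None was lower at an unadjusted p below 0.05 (0 of 10) or with DESeq2's adjusted p (0 of 10, against 1037 of all 10687 genes). Hsph1, an HSP110 protein that exchanges nucleotide on HSP70, was counted at 81.1, 79.8 and 77.4 CPM in control and at 120, 107 and 127 CPM in OE libraries. Its log2 fold change was 0.57 (SE 0.12, edgeR's adjusted p = 0.00353), and it passed in all 19 alternatives. The related Hspa4 was counted at 359, 338 and 354 CPM in control and 285, 366 and 270 CPM in OE libraries, where replicate 2 lay above every control. Its log2 fold change was -0.19 (SE 0.12, edgeR's adjusted p = 0.258), and it passed only when OE replicate 2 was left out (-0.37, adjusted p = 0.0407).

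The stress-inducible pair Hspa1a and Hspa1b lies within a short stretch of chromosome 17 (34969190 to 34972156 and 34956436 to 34959238, minus strand, GRCm38). Hspa1b was counted at 28.1, 26.7 and 28.1 CPM in control and 35.7, 38.9 and 49.9 CPM in OE libraries, a rise of 0.58 on the log2 scale (SE 0.17, edgeR's adjusted p = 0.0219). The call was lost without any of the 3 control replicates and without OE replicate 3 (adjusted p from 0.0573 to 0.0842). It was also lost in DESeq2's test (adjusted p = 0.0918). With the GC offset it was lost too (0.34, adjusted p = 0.168, in a range from 0.00800 to 0.173 over all alternatives). The log2 fold change of Hspa1b stayed between 0.43 and 0.62 when single libraries were left out. Hspa1a was counted at 17.1, 10.8 and 17.0 CPM in control and 14.2, 20.4 and 21.6 CPM in OE libraries. These ranges overlapped, and the log2 fold change of 0.32 (SE 0.25) did not pass (edgeR adjusted p = 0.350). The pair is known for near-identical coding sequences, so the split of reads between them is uncertain, though their last 300 bases did not match at 95% identity over 150 bases.

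Hspa8, the constitutive HSP70 of the cytosol, was counted at 418, 435 and 465 CPM in control and 519, 467 and 520 CPM in OE libraries. The groups were separated by a narrow gap, and the log2 fold change of 0.19 (SE 0.10) did not pass (edgeR adjusted p = 0.161). Hspa8 holds 3 small nucleolar RNA genes of the Snord14 family, and the 3′ ends of 7 pseudogenes match its own, together with 58 counts over the 6 libraries. Hspa9, the HSP70 of the mitochondrial matrix, was counted at 692, 660 and 633 CPM in control and 502, 604 and 641 CPM in OE libraries, with an overlap (log2 fold change -0.18, SE 0.11, edgeR's adjusted p = 0.219). Hspa2 had a log2 fold change of 0.41 (SE 0.16) and Hspa13 of -0.42 (SE 0.22), and neither passed (edgeR adjusted p = 0.0693 and 0.169). Without OE replicate 1, Hspa13 fell by 0.71 (edgeR adjusted p = 0.0119).

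The small heat shock proteins, ATP-independent holders of unfolded clients, were the family with the highest median. The family was grouped by symbol, so Hspb11, known from intraflagellar transport, enters the share, the median and the sum. Of the 4 tested, 3 rose (75%, against 16.5% of all genes). The family summed to 109, 113 and 116 CPM in control and to 184, 220 and 163 CPM in OE libraries. Hspb1, the mouse form of HSP27, was counted at 60.4, 68.5 and 64.5 CPM in control and at 132, 151 and 98.9 CPM in OE libraries. Every OE library lay above every control, with replicate 3 the lowest of them. The log2 fold change was 0.98 (SE 0.15, edgeR's adjusted p = 0.000749), which is 1.98-fold, and it passed in all 19 alternatives, from 0.71 to 1.14. Hspb1 (chromosome 5, 135887919 to 135889563, plus strand, GRCm38) has 1 near-identical pseudogene, Hsp25-ps1, with 14 counts in all.

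Hspb8, which acts with Bag3 in the autophagic removal of misfolded proteins, was counted at 16.1, 15.5 and 18.0 CPM in control and 29.98, 30.3 and 26.2 CPM in OE libraries. It rose by 0.80 on the log2 scale (SE 0.18, edgeR's adjusted p = 0.00597) and passed in all 19 alternatives. Hspb6 was low, at 7.83, 7.98 and 9.21 CPM in control and 13.4, 14.9 and 11.8 CPM in OE libraries, with no overlap. Its rise of 0.68 (SE 0.24, edgeR's adjusted p = 0.0481) passed in only 4 of 19 alternatives. It did not pass without any of the 3 control replicates or without OE replicate 1 or 2 (adjusted p from 0.0867 to 0.156), nor with the GC offset (adjusted p = 0.165, in a range from 0.0352 to 0.244). The log2 fold change of Hspb6 stayed between 0.57 and 0.76 when single libraries were left out. Hspb6 overlaps Gm38670 on its own strand. Hspb11 had a log2 fold change of -0.28 (SE 0.31, edgeR's adjusted p = 0.530), with 8.10 CPM in OE replicate 1 and at least 20.6 CPM in the other 5 libraries.

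**Figure D2:**
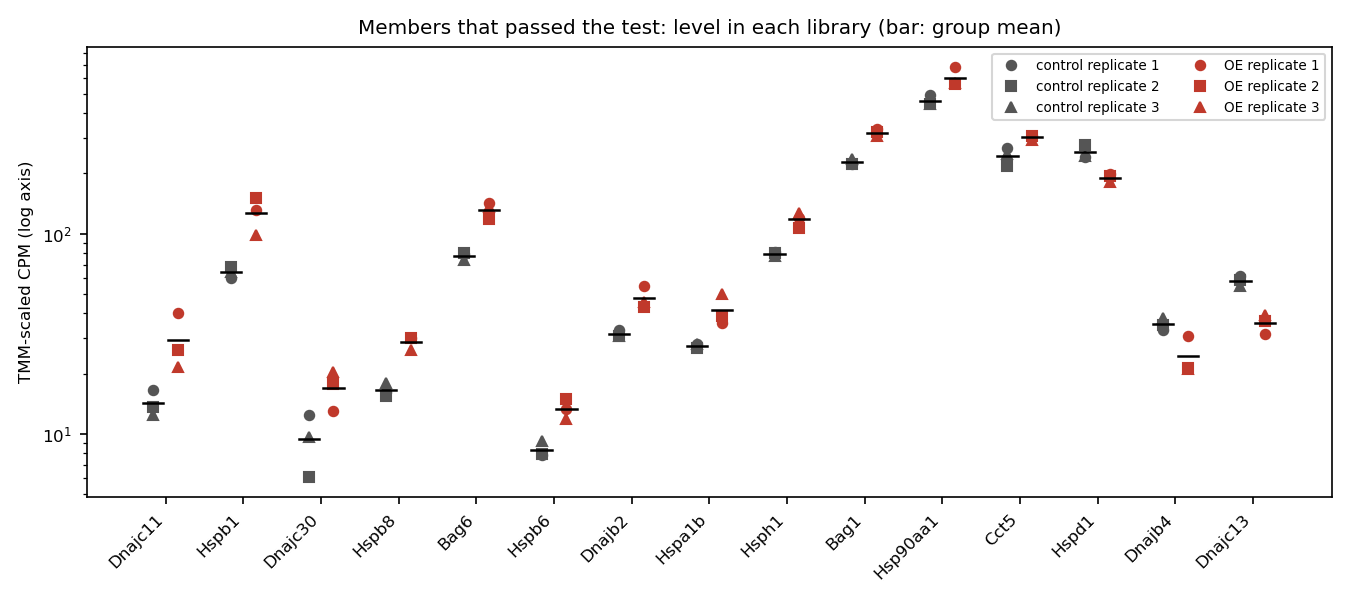
TMM-scaled CPM on a log axis of the 15 members that passed the test, in each of the 6 libraries; marker shapes stand for replicate numbers and short bars for group means. Hspb1, Hspb8, Bag6 and Bag1 show groups well apart, while Dnajc30 and Dnajb4 show OE replicate 1 close to the control libraries.

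Of the mitochondrial chaperonin, Hspd1 fell and Hspe1 did not pass. Hspd1, which forms the barrel (HSP60), was counted at 242, 278 and 245 CPM in control and 198, 195 and 181 CPM in OE libraries. It fell by 0.42 in log2 units (SE 0.11, edgeR's adjusted p = 0.0111). Leaving out control replicate 2, the highest, took the adjusted p to 0.0827, and the GC offset took it to 0.0655 (range from 0.000984 to 0.0827 over all alternatives). Hspe1, the lid (HSP10), was counted at 166, 141 and 164 CPM in control and 161, 188 and 195 CPM in OE libraries, a log2 fold change of 0.21 (SE 0.12) that did not pass (edgeR adjusted p = 0.204) and became -0.03 with an offset for transcript length.

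The 2 genes sit head to head on chromosome 1, with 216 bases between the RefSeq starts. Their gene bodies overlap on opposite strands in GENCODE M21, and the strand setting of the counting was not given in the sources used here. Within a library, Hspe1 gave 0.684, 0.508 and 0.669 counts for each count of Hspd1 in control and 0.816, 0.964 and 1.08 in OE libraries. The ratio was higher in every OE library, at 0.954 ± 0.133 against 0.620 ± 0.0980 (SD, n = 3; exact permutation p = 0.1, two-sided, the smallest possible here). This ratio and the other ratios given were chosen after their values were seen, so their permutation p values are descriptions and lend no support.

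**Figure D3:**
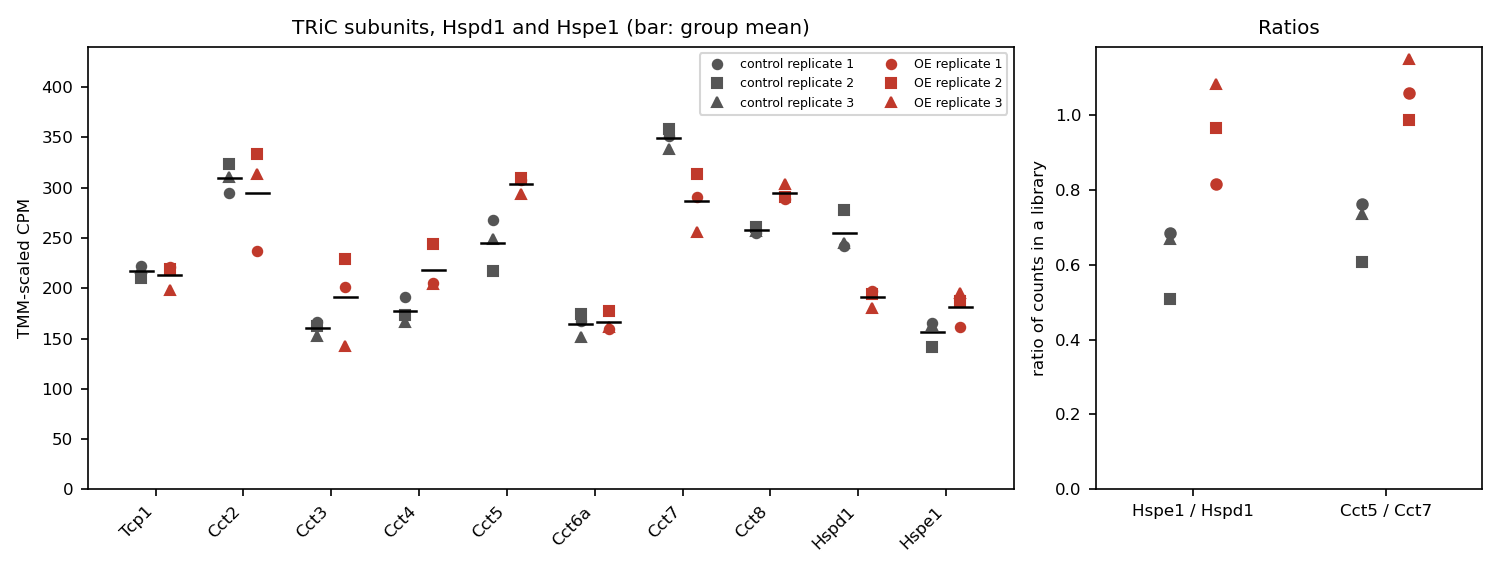
Left, TMM-scaled CPM of the 8 TRiC subunits, Hspd1 and Hspe1 in each library, with short bars for group means; right, the ratio of counts of Hspe1 to Hspd1 and of Cct5 to Cct7 within each library. All OE libraries lie above the controls for Cct5 and below them for Cct7 and Hspd1, while Hspe1 overlaps its controls, and both ratios are higher in all 3 OE libraries.

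TRiC, the cytosolic chaperonin, is built from equal numbers of 8 subunits, and all 8 were tested. Only Cct5 passed by edgeR's test (12.5% higher, against 16.5% of all genes), and 5 of the 8 had a positive log2 fold change. Cct5 was counted at 268, 218 and 249 CPM in control and 307, 309 and 294 CPM in OE libraries, a rise of 0.31 (SE 0.11, edgeR's adjusted p = 0.0468). It passed in 6 of 19 alternatives, and the adjusted p ran from 0.0705 to 0.235 in the fits without control replicate 1, 2 or 3 or without OE replicate 1 or 2. Cct7 was counted at 352, 358 and 339 CPM in control and 291, 314 and 256 CPM in OE libraries, with no overlap and a log2 fold change of -0.29 (SE 0.11, edgeR's adjusted p = 0.0597). It passed without OE replicate 1 (adjusted p = 0.0114) and without OE replicate 2 (adjusted p = 0.0439).

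For each count of Cct7, Cct5 gave 0.763, 0.607 and 0.736 counts in control and 1.06, 0.986 and 1.15 in OE libraries. Cct4 (log2 fold change 0.30, SE 0.11) and Cct8 (0.19, SE 0.10) had ranges that did not overlap, yet neither passed (edgeR adjusted p = 0.0660 and 0.152). Cct4 passed without OE replicate 1 (adjusted p = 0.0478) or replicate 3 (adjusted p = 0.0303). Cct3 was at 201, 229 and 143 CPM in the OE libraries, below all controls in replicate 3 alone, and passed only without that library (adjusted p = 0.00820, against 0.230 with it). Tcp1 (-0.03), Cct2 (-0.07) and Cct6a (0.01) changed sign between alternatives. The 8 subunits and their low paralogues summed to 1882 ± 35.3 CPM in control and 1969 ± 130 CPM in OE libraries (SD, n = 3), and these ranges overlapped. As a share of all counts, TRiC took 0.181% to 0.187% in control and 0.191% to 0.214% in OE libraries, with no overlap. The mitochondrial ribosomal RNAs and CT010467.1 took a smaller share in OE libraries, and their part in this gap was not tested.

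J-domain proteins start the HSP70 cycle and set its clients. The 3 tested DNAJA genes, general partners of HSP70, had positive log2 fold changes and none passed by edgeR's test (0 of 3 also at an unadjusted p below 0.05, and 0 with DESeq2). Dnaja2 was counted at 206, 216 and 193 CPM in control and 227, 234 and 214 CPM in OE libraries (0.13, SE 0.10, edgeR's adjusted p = 0.347). Dnaja1, at 62.7, 64.3 and 77.9 CPM against 71.7, 70.0 and 66.8 CPM, had a log2 fold change of 0.03 that changed sign between alternatives. Dnaja3, the mitochondrial member, had a log2 fold change of 0.31 (SE 0.18, edgeR's adjusted p = 0.209).

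Among the 6 tested DNAJB genes, 1 rose and 1 fell (16.7% each, against 16.5% and 12.7% of all genes). Dnajb2, which carries ubiquitin-binding motifs, was counted at 33.2, 31.0 and 30.9 CPM in control and 54.7, 42.9 and 45.7 CPM in OE libraries, a rise of 0.59 (SE 0.15, edgeR's adjusted p = 0.0124). The call was lost without control replicate 2 or 3 (adjusted p = 0.0566 and 0.0581) and in DESeq2's test (adjusted p = 0.0645). It was also lost with the GC offset (adjusted p = 0.108, in a range from 0.00752 to 0.124). Dnajb4 was counted at 33.2, 35.2 and 37.8 CPM in control and 30.8, 21.2 and 21.1 CPM in OE libraries, where replicate 1 lay close to the controls. Its fall by 0.54 on the log2 scale (SE 0.18, edgeR's adjusted p = 0.0452) passed in 9 of 19 alternatives. The call was lost without any control replicate or without OE replicate 2 or 3 (adjusted p from 0.0874 to 0.152). It was also lost in DESeq2's test (adjusted p = 0.0945). With the GC offset the log2 fold change was -0.31 (adjusted p = 0.278, in a range from 0.00234 to 0.278).

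Dnajb1, the main heat-inducible J protein, was counted at 34.6, 27.7 and 29.5 CPM in control and 44.97, 46.0 and 35.5 CPM in OE libraries. The groups did not overlap, and the log2 fold change of 0.46 (SE 0.17) stood at an edgeR adjusted p of 0.0513, and at 0.0163 without OE replicate 3. Dnajb6, known for keeping polyglutamine proteins from aggregating, went the other way, from 84.3, 73.7 and 79.2 CPM to 63.6, 61.7 and 63.8 CPM. Its log2 fold change of -0.33 (SE 0.12) did not pass (edgeR adjusted p = 0.0563), but did with the GC offset (-0.40, adjusted p = 0.0355) and without OE replicate 1 (-0.39, adjusted p = 0.0247).

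The DNAJC genes are the most varied J proteins, many of them bound to one organelle, and 22 were tested. Here 2 rose (9.09%, against 16.5% of all genes), 1 fell (4.55%, against 12.7%) and 19 did not pass. The family summed to 1912 ± 21.5 CPM in control and 1752 ± 108 CPM in OE libraries (SD, n = 3), with no overlap. As a share of all counts the ranges did overlap, at 0.185% to 0.189% in control and 0.167% to 0.186% in OE libraries. Dnajc11, a protein of the mitochondrial outer membrane tied to the cristae-organising complex, had the largest change of all members tested. It was counted at 16.6, 13.6 and 12.4 CPM in control and 40.1, 26.3 and 21.6 CPM in OE libraries, a rise of 1.04 (SE 0.25, edgeR's adjusted p = 0.00847). It was the 1 member changed at least 2-fold, against 5.38% of all genes, and it passed in all 19 alternatives, from 0.70 to 1.22.

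Dnajc30, also mitochondrial, was counted at 12.4, 6.10 and 9.68 CPM in control and 12.96, 17.7 and 20.3 CPM in OE libraries. The gap between the groups was narrow. Its rise of 0.85 (SE 0.28, edgeR's adjusted p = 0.0397) passed in 10 of 19 alternatives. It was lost without control replicate 2 or 3 or without OE replicate 2 or 3 (adjusted p from 0.0932 to 0.165). The call was also lost with the GC offset (adjusted p = 0.102) and in DESeq2's test (adjusted p = 0.113). Bud23 overlaps it on the opposite strand. The other mitochondrial J proteins did not pass: Dnajc15 had a log2 fold change of 0.34 (SE 0.20, edgeR's adjusted p = 0.228), Dnajc19 of 0.29 (SE 0.30, adjusted p = 0.489) and Dnajc28 of -0.66 (SE 0.33, adjusted p = 0.154). Dnajc19 ran from 12.96 to 35.1 CPM in the OE libraries alone.

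Dnajc13, which drives HSP70 on endosomes, fell. It was counted at 61.3, 58.6 and 54.8 CPM in control and 31.6, 36.6 and 39.3 CPM in OE libraries, and the groups were far apart. The log2 fold change was -0.70 (SE 0.14, edgeR's adjusted p = 0.00328), and it passed in all 19 alternatives, from -0.77 to -0.49. Hmgb1-rs16 lies in it on the same strand. Dnajc10, which encodes a reductase of the endoplasmic reticulum, had the highest CPM of the DNAJ members. It was counted at 666, 660 and 668 CPM in control and 561, 628 and 531 CPM in OE libraries, with no overlap (log2 fold change -0.21, SE 0.10, edgeR's adjusted p = 0.118). Dnajc7 (-0.25, SE 0.12) and Dnajc8 (-0.27, SE 0.11) were also below their controls in all 3 libraries without passing (edgeR adjusted p = 0.134 and 0.0990). Without OE replicate 1 all 3 passed, at adjusted p values of 0.0364, 0.0436 and 0.00792.

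BAG proteins release clients from HSP70, and 2 of the 6 tested rose (33.3%, against 16.5% of all genes). Bag6, which guards tail-anchored and mislocalised proteins, was counted at 79.3, 79.8 and 74.2 CPM in control and 142, 118 and 136 CPM in OE libraries. Its rise of 0.76 on the log2 scale (SE 0.12, edgeR's adjusted p = 0.000720) had the smallest p of all members and passed in all 19 alternatives, from 0.50 to 0.81. Bag1, which couples HSP70 to the proteasome, was counted at 224, 223 and 236 CPM in control and 334, 321 and 307 CPM in OE libraries. It rose by 0.49 (SE 0.10, edgeR's adjusted p = 0.00304), a call kept without any single library but lost with the GC offset (0.30, adjusted p = 0.0574) and with the length offset (0.29, adjusted p = 0.0714), in a range from 0.00106 to 0.0789.

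Bag3, the heat-inducible member that pairs with Hspb8, did not rise with it. Bag3 was counted at 69.6, 55.4 and 62.2 CPM in control and 48.2, 59.8 and 52.4 CPM in OE libraries, a log2 fold change of -0.22 (SE 0.14, edgeR's adjusted p = 0.258), and -0.44 with the GC offset (adjusted p = 0.0403). Bag1 gave 3.21, 4.03 and 3.79 counts for each count of Bag3 in control and 6.92, 5.37 and 5.85 in OE libraries, so the ratio was higher in every OE library (exact permutation p = 0.1, two-sided). Bag2 ranged from 14.6 CPM in OE replicate 1 to 42.5 and 41.4 CPM in replicates 2 and 3, and passed only without replicate 1 (0.47, edgeR's adjusted p = 0.0386, against 0.701 with it). Bag3 overlaps 2610306O10Rik on its own strand.

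The promoters were searched for heat shock elements, the sites of HSF1, in RefSeq windows of GRCm38.p6 from 250 bases before to 50 after each start, where 67 of the 88 members had an entry. A pair of inverted units was searched as GAANNTTC or TTCNNGAA, and a run of 3 units as either pair followed, after 2 more bases, by a further inverted unit. Both patterns cover both strands, and every run also holds pairs. A pair was present for 21 of 67 members (31.3%), against 4587 of 27025 genes with an entry (17.0%), and a run for 4 of 67 (5.97%) against 179 genes (0.662%). The members with a run are Hsph1, Hspd1, Hspe1 and Dnajb6, of which Hsph1 rose, Hspd1 fell and the others did not pass. The runs of Hspd1 and Hspe1 are the same stretch of DNA, counted once for each gene. Hspa1a and Hspa1b, with near-identical windows, were also counted separately for their pair. Among tested members a pair was present in 16 of 50 (32.0%), against 1127 of 8388 tested genes (13.4%): in 6 of 9 that rose, 2 of 3 that fell and 8 of 38 that did not pass. Only 9 of the 12 that rose had an entry, and the Hspb8 match lies after the start. The like shares among all genes that rose or fell were not computed, and the split by call was not tested. A match is a description of letters in a window, and genes with more than 1 start had more than 1 window.

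The sequences below show the matched letters, in capitals, for members that rose, fell or did not pass, each 5′ to 3′ on the strand of its gene. The 120 bases before the start are given where none of them lies in an annotated exon, and otherwise 30 bases around the match. The 30 bases shown for Hspb6 are themselves free of exons. Hspa1a and Hspa1b are identical at 119 of 120 bases, and share 1 pair of units. The Hspe1 window holds 2 overlapping runs and lies inside an exon of a longer Hspd1 transcript, on the opposite strand, and the same letters read on the other strand are the runs of Hspd1. The Hsph1 window shows a pair, as its run lies after the start, and the windows of Hspb6 and Dnajb4 lie within the gene body before an internal start. All 30 bases shown for Cct5 lie in an exon of Fam173b, and those for Dnajb6 in exons of Dnajb6 or Gm5129.
Hspb1 (rose, chr5:135887799-135887918, plus strand): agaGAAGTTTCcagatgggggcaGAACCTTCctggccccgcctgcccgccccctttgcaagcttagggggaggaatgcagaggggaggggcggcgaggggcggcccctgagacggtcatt
Hspb6 (rose, chr7:30553170-30553199, plus strand): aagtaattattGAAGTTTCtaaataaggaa
Hspa1b (rose, chr17:34959239-34959358, minus strand): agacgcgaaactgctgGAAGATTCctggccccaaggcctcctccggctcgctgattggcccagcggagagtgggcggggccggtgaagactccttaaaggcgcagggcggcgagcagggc
Hspa1a (did not pass, chr17:34972157-34972276, minus strand): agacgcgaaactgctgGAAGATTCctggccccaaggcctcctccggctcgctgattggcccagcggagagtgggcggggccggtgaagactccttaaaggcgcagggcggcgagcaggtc
Hsph1 (rose, chr5:149636351-149636380, minus strand): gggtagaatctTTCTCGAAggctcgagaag
Cct5 (rose, chr15:31601862-31601891, minus strand): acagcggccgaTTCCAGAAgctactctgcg
Hspe1 (did not pass, chr1:55088053-55088082, plus strand): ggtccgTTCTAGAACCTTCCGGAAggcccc
Dnajb6 (did not pass, chr5:29735843-29735872, plus strand): cagctccgaGAATCTTCCGGAAcgctagac
Dnajb4 (fell, chr3:152193846-152193965, minus strand): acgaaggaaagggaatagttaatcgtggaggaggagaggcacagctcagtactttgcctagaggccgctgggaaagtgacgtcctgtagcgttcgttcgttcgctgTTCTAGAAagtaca

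None of the heat shock factors passed the test. Hsf1 was counted at 20.7, 20.6 and 21.7 CPM in control and 13.8, 20.1 and 22.8 CPM in OE libraries (log2 fold change -0.16, SE 0.22, edgeR's adjusted p = 0.622). Hsf2 (0.00) and Hsbp1 (-0.03), which encodes a small protein that binds HSF1, lay near 0 with signs that changed between alternatives. Of the 3 tested genes of this list 0 passed by edgeR's test, 0 at an unadjusted p below 0.05 and 0 with DESeq2. These values are transcript levels, and HSF1 is known to be controlled mainly as a protein.

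Among 16 tested co-chaperones of HSP90, 2 rose and 2 fell (12.5% each, against 16.5% and 12.7% of all genes). Fkbp4, a peptidyl-prolyl isomerase that escorts steroid receptors, was counted at 286, 303 and 306 CPM in control and 729, 573 and 520 CPM in OE libraries, a rise of 1.03 (SE 0.13, edgeR's adjusted p = 0.0002). Cdc37l1 fell by 0.41 (SE 0.11, edgeR's adjusted p = 0.0180), a call lost without any control replicate or without OE replicate 2 (adjusted p from 0.0553 to 0.0839). Stip1, which passes clients from HSP70 to HSP90, had a log2 fold change of -0.35 (SE 0.13, edgeR's adjusted p = 0.0596), and -0.54 without OE replicate 1 (adjusted p = 0.00135). None of the 5 tested HSP70 co-chaperones outside the families passed by edgeR's adjusted p or DESeq2's. Of these, 3 had an unadjusted p below 0.05, and the share of all genes at that unadjusted threshold was not computed.

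Prefoldin and partner genes of TRiC were tested as 11 genes, with a median log2 fold change of 0.21, beside 0.04 in all genes. Of these, 3 rose (27.3%, against 16.5% of all genes) and 1 fell (9.09%, against 12.7%). Pfdn6, a prefoldin subunit that hands actin and tubulin to TRiC, was counted at 47.0, 53.0 and 59.4 CPM in control and 109, 104 and 89.6 CPM in OE libraries (0.92, SE 0.14, edgeR's adjusted p = 0.000532). Pdrg1 of a prefoldin-like complex fell from 100, 99.9 and 102 CPM to 70.1, 62.9 and 52.8 CPM (log2 fold change -0.70, SE 0.13, edgeR's adjusted p = 0.00194). Of 12 tested mitochondrial partners and proteases, Clpp, a matrix protease, rose by 0.70 (SE 0.17, edgeR's adjusted p = 0.00781) and Yme1l1, an inner membrane protease, fell by 0.69 in log2 units (SE 0.11, edgeR's adjusted p = 0.000880). No others of this list passed by edgeR's test, so each direction held 8.33%, against 16.5% and 12.7% of all genes. The call of Clpp was lost with the GC offset (0.46, adjusted p = 0.0562) and the length offset (0.47, adjusted p = 0.0667).

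Endoplasmic reticulum chaperones, which the rule leaves out, were tested as 12 genes. By edgeR's test 4 of them fell (33.3%, against 12.7% of all genes) and none rose (against 16.5%), with a median of -0.40 beside 0.04 in all genes, and they summed to 3984 ± 43.9 CPM in control and 3136 ± 239 CPM in OE libraries (SD, n = 3). Hsp90b1 fell by 0.56 in log2 units (SE 0.11, edgeR's adjusted p = 0.00355) and Canx by 0.60 (SE 0.10, edgeR's adjusted p = 0.00122). Hspa5, another of the 4, did not pass without control replicate 1, 2 or 3 (adjusted p from 0.0509 to 0.0654). At an unadjusted p below 0.05, 1 was higher and 5 were lower, and the like shares of all genes were not computed. With DESeq2 0 were higher and 4 lower, against 1059 higher and 1037 lower of all 10687 genes. The difference between these chaperones and the members was not tested.

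GC content moved with the change. The 12 members that rose had transcripts with a median GC content of 54.5%, the 3 that fell 45.3% and the 48 that did not pass 46.7%. Across the 63 tested members, Spearman's rho of log2 fold change with GC content was 0.45, and 0.37 across 10680 genes with a value. These are correlations across genes that share the same libraries, given as a description, and genes are not independent replicates. With a GC offset 8 members rose and 3 fell, and 7 of the 15 calls were kept, those of Bag6, Hspb1, Hspb8, Hsph1, Hsp90aa1, Dnajc11 and Dnajc13. The part of GC content in the other calls was not tested further. Mitochondrial ribosomal RNAs, 9.11% of counts in control and 4.05% in OE libraries, also moved with the groups, as did CT010467.1, at 4.46% and 1.61%; their part in the results was not tested beyond leaving them out.

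**Figure D4:**
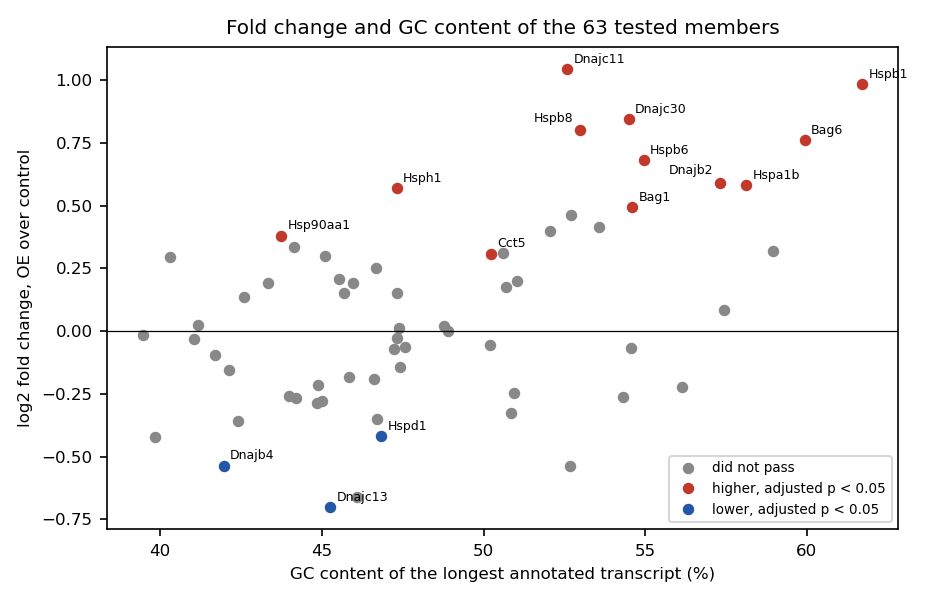
Log2 fold change (OE over control) of the 63 tested members against the GC content of the longest annotated transcript in percent; members that passed are coloured and named. Of the 12 members that rose, Hsph1 (47.3%) and Hsp90aa1 (43.7%) lie left of the other 10, and the 3 that fell lie at or below 46.8%.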

How the data were processed

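Gene expression was measured by QuantSeq 3′ mRNA sequencing of total RNA, per the labels' protocols. The table the authors deposited holds estimated counts for each gene without normalization, and the submitters' processing notes name STAR, HTSeq and the builds mm10 and GRCm38, with no role or order. Of the values, 2843 were fractional, and all were rounded for the test, which was planned on the assumption of integers. Groups and replicate numbers came from sample titles, and columns were matched by library name.

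OE-labelled libraries were compared with control libraries by the quasi-likelihood test of edgeR 4.0.16 (R 4.3.3), with filterByExpr, TMM factors and Benjamini-Hochberg adjustment over the 10687 genes kept, without covariates, and a threshold of 0.05. The SE of a log2 fold change is its size over the root of edgeR's F. Reads are not independent molecules, so limits from counts cover counting error only. Positions, overlaps and GC content (longest transcript) came from GENCODE M21. Copies were sought among transcripts with 95% identity over at least 150 of the last 300 bases.

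The members and gene lists were chosen with earlier results of these data known. The naming rule took 28 core chaperones, up to 8 members with the smallest p in each direction, members changed at least 2-fold, and up to 2 genes of each partner list. Any further gene named was picked with its values in view. Alternatives were DESeq2 1.42.0, its size factors, library totals, limma-voom (limma 3.58.1), other filters, unrounded counts, removal of abundant RNAs, a GC offset (loess), the replicate number as a block, and each library left out; a variance per group and a length offset were added after seeing the data. The fits were tested on simulated data.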

Additional observations from a re-analysis of the deposited data

How the results depend on the processing

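Of 15 member calls, 6 (Bag6, Hspb1, Hspb8, Hsph1, Dnajc11 and Dnajc13) were kept in all 19 alternatives, and for 71 single genes 1147 of 1349 values kept direction and call, 108 no longer passed, 56 newly passed and 38 changed sign. The cause of these shifts was not tested. Calls over all genes also moved, from 3118 to between 1748 and 3532 when single libraries were left out. Members that rose numbered 12, 15 with library totals, 6 with DESeq2's test and 6 at an adjusted p below 0.01; leaving out single libraries gave from 6 to 14. Members that fell numbered 3, 6 with DESeq2 size factors, 6 without mitochondrial genes and CT010467.1 and 1 at an adjusted p below 0.01; leaving out single libraries gave from 1 to 10. The median of the members was 0.02, 0.104 with the GC offset, and -0.0314 to 0.115 when single libraries were left out.

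Signs near 0 changed. With DESeq2 size factors Cct6a became -0.0307, Dnaja1 -0.0171 and Hsf2 -0.0388, and with DESeq2's test -0.0306, -0.0171 and -0.0382. Without a count filter they became -0.0219, -0.0078 and -0.0292, and without mitochondrial genes and CT010467.1 -0.0459, -0.0330 and -0.0558. Hsf2 became -0.00477 with limma-voom and -0.00480 with a variance per group. With library totals Tcp1 became 0.0175 and Hsbp1 0.0212. With the GC offset Tcp1 became 0.205, Hsbp1 0.0326 and Cct2 0.0033. With the length offset Cct6a became -0.0949 and Hspe1 -0.0256. Leaving out single libraries gave Cct6a from -0.0644 to 0.0537, Dnaja1 from -0.0524 to 0.130, Hsf2 from -0.201 to 0.0774, Tcp1 from -0.115 to 0.0223, Cct2 from -0.201 to 0.0091, Hspb11 from -0.570 to 0.0205, Bag2 from -0.0953 to 0.475 and Dnajc19 from -0.117 to 0.524.

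The titles do not say that equal replicate numbers pair cultures, so the main fit did not pair the libraries. Deviations of equally numbered libraries from their group means correlated across genes at 0.0975, 0.0181 and 0.0695. With so few libraries these values cannot settle whether they were paired. With the replicate number as a block, 10 members rose and 3 fell (13 calls shared), and with the block and GC offset 8 and 3, with a median of 0.09, Tcp1 at 0.199 and Hsbp1 at 0.0328. At this depth the 25 members that were not tested had at most 11 counts in a library.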
